A study of Homo sapiens with 6 samples.

Results

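The genes described here encode the human proteasome: the subunits of its 20S core and 19S cap, its activators and inhibitor, and the factors that assemble it. They were chosen by name, as a list of 48 genes that goes by function and sets no threshold on a measured value. Of these, 47 were found among the gene identifiers of the count files, and all 47 passed the filter on low counts, out of 14398 genes tested and 24945 genes with at least 1 count. PSMB3, a beta subunit, was not analysed here, because the annotation identifier of this gene (ENSG00000277791) was not among those of the files.

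The proteasome is the protease that breaks down ubiquitin-tagged proteins. Its core is a barrel of alpha and beta rings, whose inner beta rings carry the active sites, and its cap binds the ubiquitin chain, removes it and threads the unfolded protein into the barrel with a ring of ATPases. Plasma cells and myeloma cells, which secrete large amounts of immunoglobulin, depend heavily on it, and proteasome inhibitors that bind the beta subunit PSMB5 are a mainstay of myeloma treatment.

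The libraries came from H929 (NCI-H929), an established human multiple myeloma cell line. In each of 6 reactions, 5 μg of its total RNA was kept in an ATP buffer at 37 °C for 1 h. In the 3 IRE1-treated samples the buffer also held 2 μg of recombinant human IRE1 (ERN1), residues 467 to 977, an endoribonuclease of the unfolded protein response. The 3 control samples had the buffer and incubation but no enzyme. Each reaction was ended at 95 °C for 5 min, and poly(A) RNA was then sequenced. The enzyme thus acted on purified RNA and not in cells. The design addresses which mRNAs IRE1 cuts: a cut mRNA keeps only its 3′ piece through poly(A) purification, and the gene count adds reads from both sides of a cut. The submitters describe the samples as biological replicates of 1 cell line, and p-values measure the spread between these samples.

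The libraries held 19615715 to 25678499 counts on genes. Markers of plasma cells were present in the controls, from CD38 at 4.23 RPKM (reads per kilobase of transcript, scaled to depth) to JCHAIN at 2989 RPKM. Of 11 markers of other cell types, 10 lay between 0 and 0.559 RPKM, and CD3E stood at 30.3 RPKM. Each library had a sequencing lane of its own, so lane and library cannot be told apart. TMM scaling, which takes most genes as unchanged, gave factors of 1.02 to 1.03 in the controls and of 0.947, 0.98 and 0.996 in IRE1-treated replicates 1, 2 and 3.

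In the control libraries, proteasome mRNAs stood well up in the range of H929 transcripts. The median of the 47 genes was 40.2 RPKM, against 6.49 RPKM for the 12225 tested protein-coding genes, with lengths taken from the canonical transcript. PSMB4, a beta subunit of the core, had the highest level at 410 ± 7.29 RPKM (SD, n = 3). It was followed by PSME2, a subunit of the PA28 activator, at 247 ± 10.4 RPKM, and by PSMD4, a ubiquitin receptor of the cap, at 215 ± 4.17 RPKM. These levels were separated by more than their spread, but their order depends on the length used. With the longest annotated transcript PSMD4 was highest at 213 RPKM, PSMB4 was at 182 RPKM and PSME2 at 71.2 RPKM. The lowest was PSMA2, an alpha subunit, at 4.72 ± 0.242 RPKM, but all of its annotated exon bases are shared with another gene on the same strand, and how such reads were counted is not given in the sources used here. Next above it was PSMD5, a chaperone of cap assembly, at 6.51 ± 0.583 RPKM, then PSMD9 at 7.63 ± 0.612 and PSME4 at 7.91 ± 0.634 RPKM. PSMD9 and PSME4 did not differ beyond their spread.

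Although core subunits enter the particle in equal numbers, their mRNAs were far from equal in RPKM. Within the alpha ring, the control level ran from PSMA2 to PSMA7 at 111 RPKM, 23.6-fold apart, and PSMA6, the next lowest at 17.8 RPKM, also shares 81.4% of its exon bases with another gene on the same strand. The beta ring ran from PSMB2 at 33.2 RPKM to PSMB4, 12.3-fold apart, but with coding length PSMB2 stood at 244 RPKM, PSMB1 and PSMB5 were lowest at 71.9 and 72.1 RPKM, and the fold was 6.61. Among the 19S ATPases, which form the unfolding ring, PSMC1 was lowest at 13.1 RPKM and PSMC5 highest at 118 RPKM. The non-ATPase subunits of the cap ran from PSMD12 at 12.3 RPKM to PSMD4, and the assembly factors from PSMD5 to PSMG2 at 37.6 RPKM. Part of this spread depends on the length used: with the coding length in place of the whole transcript, an alternative added after the data were seen, the fold between the highest and the lowest member fell from 86.9 to 49.3, and among the ATPases from 8.98 to 2.95.

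**Figure D1:**
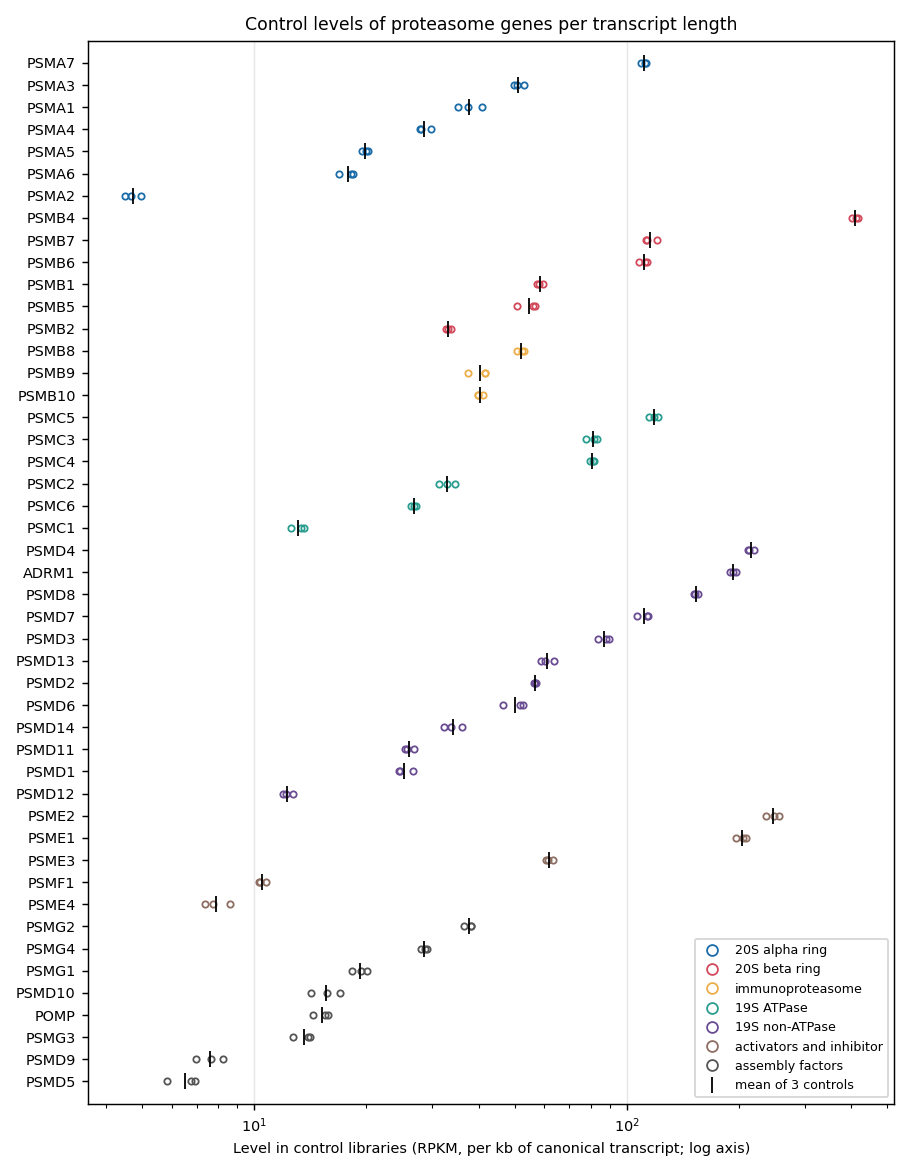
Level of each of the 47 proteasome genes in the 3 control libraries, in RPKM on a log axis, with 1 point per library, a bar at the mean and the genes ordered within subgroups. PSMB4 stands highest at 410 RPKM, PSMA2 lowest at 4.72 RPKM, and the points of a gene lie close together beside the distance between genes.

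The active sites of the standard core sit on a set of beta subunits, PSMB5 with chymotrypsin-like, PSMB6 with caspase-like and PSMB7 with trypsin-like activity. Immune cells can replace them with PSMB8, PSMB9 and PSMB10, which makes the immunoproteasome. Both sets were present in the controls. PSMB8 was at 52.0 ± 1.08 RPKM and PSMB5 at 54.5 ± 3.26 RPKM, a mean ratio of 95.5%, with log2 ratios between -0.117 and 0.00031 in the 3 libraries. PSMB9, at 40.3 ± 2.39 RPKM, was at 36.2% of PSMB6, and PSMB10, at 40.2 ± 0.729 RPKM, was at 34.8% of PSMB7. As log2 ratios these pairs were at -0.066 ± 0.060, -1.46 ± 0.12 and -1.52 ± 0.071 (SD, n = 3). These ratios depend on which length is used. With the longest annotated transcripts the first 2 became -1.05 and -2.78, and with merged exons that of PSMB10 to PSMB7 became -1.40.

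After IRE1, proteasome mRNAs took a larger share of the counts. Words such as higher, lower and rose refer to counts relative to the other genes of a library, since purified RNA makes no new transcripts. Of the 47 genes, 31 were higher in IRE1-treated samples at an adjusted p under 0.05 (edgeR quasi-likelihood test, Benjamini-Hochberg over all tested genes), none was lower and 16 did not pass. Over all tested genes, 10.3% were higher and 12.4% lower by the same rule. At an unadjusted p under 0.05, 37 were higher and 0 lower, against 16.7 and 18.1% of all tested genes, and DESeq2 and limma called 29 and 31 higher (10.8 and 11.9% of all genes they tested) and 0 lower (12.4 and 14.8%). The median log2 fold change of the 47 was 0.22, against 0.0045 for all tested genes, and 45 of 47 lay above 0, against 50.8% of all tested genes. In 37 genes every IRE1-treated library lay above every control, against 19.1% of all tested genes. None had every IRE1-treated library below, against 20%, and in 10 the groups overlapped. Seen per library, the median log2 shift of the 47 from the control mean was 0.26 in IRE1-treated replicate 1, 0.21 in replicate 2 and 0.15 in replicate 3.

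How libraries are scaled bears on these counts. With library size alone, 18 of the 47 were higher, against 4.74% of all tested genes, the members' median was 0.14 beside -0.071 for all tested genes, and 38 lay above 0. The split of all calls then went from 1489 higher and 1781 lower (10.3 and 12.4%) to 683 and 2596 (4.74 and 18%). Leaving out control replicate 2 also gave 18 genes, against 4.38% of all tested genes, and leaving out IRE1-treated replicate 3 gave 35, against 14.4%. Across the 6 fits that each drop a library, 16 of the 31 passed every time and 15 did not. The genes higher under each of the 16 other settings numbered 5, namely PSMA4, PSMA5, PSMC1, PSMD7 and PSME1. How many of all tested genes passed in every such fit or setting was not counted, so neither number has a background beside it.

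**Figure D2:**
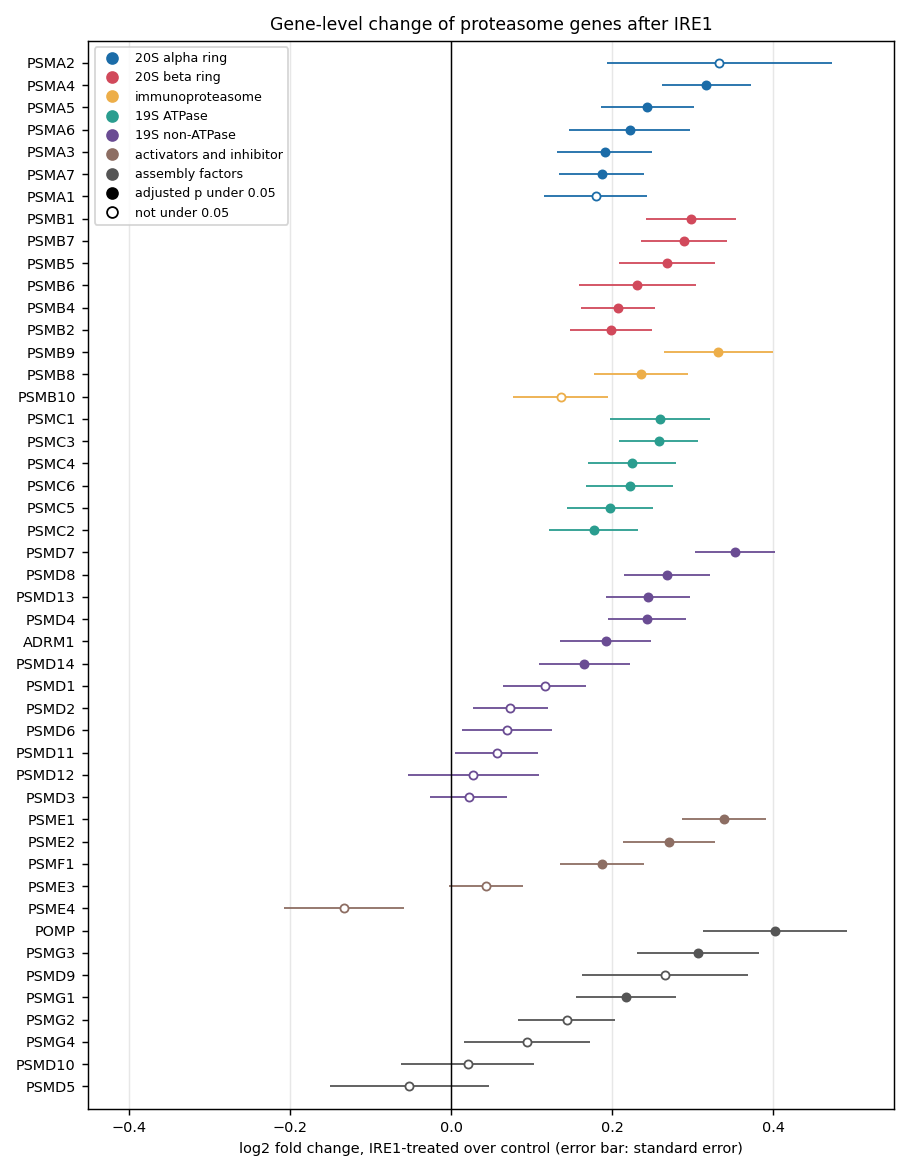
Log2 fold change of each proteasome gene, IRE1-treated over control, with bars of 1 standard error and filled points where the adjusted p of edgeR's quasi-likelihood test was under 0.05. Of 47 points, 45 lie right of 0 (38 with library size as the only scaling), and the beta ring and the ATPases are filled throughout.

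Both rings of the 20S core held genes that were higher. All 6 tested beta subunits were higher, with log2 fold changes of 0.20 to 0.30, and 5 of 7 alpha subunits were, with PSMA1 and PSMA2 not passing. With library size as the only scaling, 4 beta and 2 alpha subunits were higher, and all 13 kept a value above 0. PSMB1 (ENSG00000008018, GRCh37 chr6:170844208-170862395) counted 1153.5, 1141 and 1179 in control replicates 1 to 3 and 1505, 1356 and 1410.3 in IRE1-treated replicates 1 to 3, in counts normalized to the mean library. The lowest treated library thus lay above the highest control, and the log2 fold change was 0.30 (SE 0.0558, adjusted p = 0.00176). PSMA4 (ENSG00000041357, GRCh37 chr15:78832747-78844759), which sits in the alpha ring, had 2898, 2729 and 2707 normalized counts in the controls and 3729, 3387 and 3272 after IRE1. Its groups did not overlap either, with a log2 fold change of 0.32 (SE 0.0553, adjusted p = 0.00109).

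The abundant PSMB4 had 8219, 8402 and 8514 normalized counts in the controls and 9709, 10014 and 9286 after IRE1, a log2 fold change of 0.21 (SE 0.0461, adjusted p = 0.00496). PSMB2, the lowest beta subunit per canonical transcript length but not per coding length, went from 3265, 3220.5 and 3331 to 3953, 3804.5 and 3511, with a log2 fold change of 0.20 (SE 0.0515, adjusted p = 0.012). These fold changes lay within 1 standard error of each other. PSMA7 counted 2395, 2342 and 2405 in the controls and 2841, 2765 and 2528 after IRE1, and its log2 fold change was 0.19 (SE 0.0525, adjusted p = 0.0183). PSMA2 had 159, 144 and 149 normalized counts in the controls and 240.0, 175 and 159 after IRE1. Its log2 fold change of 0.33 was as large as that of PSMA4, but with treated libraries far apart and an SE of 0.14 it did not pass (adjusted p = 0.101), except without IRE1-treated replicate 3 (0.46, adjusted p = 0.0131). Some calls of this paragraph rest on single libraries. PSMB2 did not pass without control replicate 1 or 2 or IRE1-treated replicate 2 (adjusted p = 0.0593, 0.0747 and 0.056). PSMA7 did not pass without any 1 of the controls (adjusted p = 0.0688, 0.0974 and 0.0548) or without IRE1-treated replicate 2 (adjusted p = 0.0801). In the same fits PSMA3 missed the threshold without any 1 of the controls or IRE1-treated replicate 2 (adjusted p up to 0.145), and PSMA6 in all but the fit without IRE1-treated replicate 3 (adjusted p up to 0.202).

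Of the subunits with active sites, PSMB5 (ENSG00000100804, GRCh37 chr14:23485752-23504439), the target of the inhibitors used in myeloma, had 1319, 1179.6 and 1300.2 normalized counts in the controls and 1572, 1570.4 and 1436.5 after IRE1. Every treated library was above every control, and the log2 fold change was 0.27 (SE 0.0600, adjusted p = 0.0051). PSMB6 went from 2083, 2051.5 and 1973 to 2762, 2207 and 2211.5, where replicate 1 stood far above the other 2 treated libraries (log2 fold change 0.23, SE 0.0725, adjusted p = 0.0317). Without that library the value was 0.12 (adjusted p = 0.0719), and PSMB6 did not pass without any 1 of the controls either (adjusted p = 0.0803, 0.0926 and 0.12). PSMB7 went from 2644, 2470.1 and 2479.9 to 3263.5, 3116.5 and 2906, with a log2 fold change of 0.29 (SE 0.0538, adjusted p = 0.00166).

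Of their immunoproteasome counterparts, PSMB8 and PSMB9 were higher. PSMB8 had 1310.0, 1270.3 and 1322 normalized counts in the controls and 1494, 1649 and 1452 after IRE1 (log2 fold change 0.24, SE 0.0578, adjusted p = 0.0088), but did not pass without control replicate 2 (adjusted p = 0.0591) or IRE1-treated replicate 2 (adjusted p = 0.0625). For PSMB9 the counts were 849, 941 and 944 against 1243, 1124 and 1075, and the log2 fold change was 0.33 (SE 0.0674, adjusted p = 0.0028). PSMB10 had 866, 866 and 893.5 in the controls and 983, 989 and 915 after IRE1. Its groups did not overlap, but its log2 fold change of 0.14 did not pass (SE 0.0591, adjusted p = 0.112), except without IRE1-treated replicate 3 (0.18, adjusted p = 0.0378). Of its exon bases, 56.1% are shared with another gene on the same strand. The log2 ratio of each immunoproteasome subunit to its standard counterpart changed by -0.036 for PSMB8 to PSMB5, by 0.11 for PSMB9 to PSMB6 and by -0.15 for PSMB10 to PSMB7. By an exact two-sided permutation test over the 6 libraries the p-values were 0.5, 0.4 and 0.1 (adjusted over these 3 pairs: 0.5, 0.5 and 0.3). With 3 libraries against 3 the smallest p possible is 0.1, so this test could not pass 0.05.

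**Figure D3:**
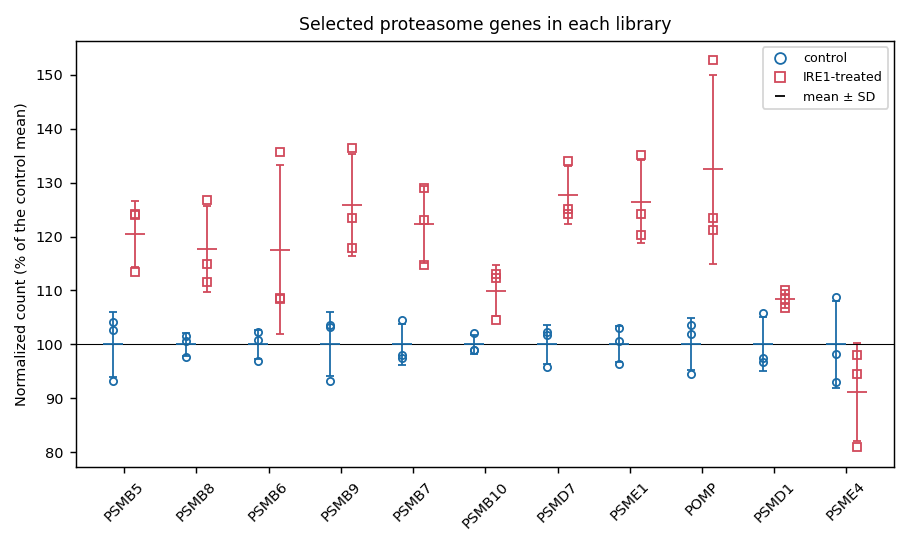
Normalized count of 11 proteasome genes in each library, as percent of the mean of the 3 controls, with bars at the mean and at 1 SD on each side. In 10 genes the 3 IRE1-treated libraries lie above the 3 controls, while in PSME4 the groups overlap.

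In the 19S cap, all 6 ATPases were higher, with log2 fold changes between 0.18 and 0.26, while 6 of 12 non-ATPase subunits were, with values between 0.02 and 0.35. With library size as the only scaling, 3 ATPases and 4 non-ATPase subunits were higher, and 5 of the non-ATPase subunits fell below 0. PSMC5, the most abundant ATPase per length, had 3504.5, 3399 and 3594 normalized counts in the controls and 4305, 3972.5 and 3765 after IRE1 (log2 fold change 0.20, SE 0.0537, adjusted p = 0.0154). It did not pass without control replicate 1 or 2 (adjusted p = 0.0665 and 0.0975) or IRE1-treated replicate 2 (adjusted p = 0.0503). PSMC2 missed the threshold in all but the fits without control replicate 1 or IRE1-treated replicate 3 (adjusted p up to 0.179), PSMC4 without control replicate 2 (adjusted p = 0.0561) and PSMC6 without control replicate 1 (adjusted p = 0.0548). PSMC1, the least abundant, went from 1329, 1302 and 1224 to 1672.5, 1442.5 and 1505, with a log2 fold change of 0.26 (SE 0.0618, adjusted p = 0.00743). PSMC1 has 13 pseudogenes named after it, and 83.2% of its exon bases lie opposite exons of NRDE2 on the other strand.

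PSMD7 (ENSG00000103035, GRCh37 chr16:74330712-74340186), a scaffold subunit that pairs with the deubiquitinase PSMD14, had the largest change of the 18 listed cap subunits. Its normalized counts were 4131, 4108 and 3865.5 in the controls and 5405, 5046 and 5009.7 after IRE1, well apart, and its log2 fold change was 0.35 (SE 0.0496, adjusted p = 2.62e-04). On the other strand, 51.6% of its exon bases lie opposite another annotated gene. PSMD4, a ubiquitin receptor, rose from 6448, 6267.5 and 6215 to 7578, 7772 and 7064 (log2 fold change 0.24, SE 0.0484, adjusted p = 0.0025). ADRM1, also a ubiquitin receptor, rose with a log2 fold change of 0.19, and so did PSMD8 with 0.27, PSMD13 with 0.24 and PSMD14 with 0.17. Of these, ADRM1 did not pass without any 1 of the controls or IRE1-treated replicate 2 (adjusted p up to 0.108), nor PSMD14 without control replicate 2 or 3 or IRE1-treated replicate 2 (adjusted p up to 0.226). The 6 that did not pass were PSMD1, PSMD2, PSMD3, PSMD6, PSMD11 and PSMD12, among them the large scaffold subunits PSMD1 and PSMD2. PSMD12 had 1235, 1177 and 1158 normalized counts in the controls and 1019, 1251 and 1361 after IRE1. Its treated libraries thus lay on both sides of the controls, with a log2 fold change of 0.03 (SE 0.0810, adjusted p = 0.848) that became -0.06 without IRE1-treated replicate 3.

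Among the activators, PSME1 and PSME2, which together form the PA28 ring that opens the gate of the core, were both higher, whereas the nuclear PA28 subunit PSME3 (0.04) and PSME4, the large PA200 activator (-0.13), did not pass. PSME1 (ENSG00000092010, GRCh37 chr14:24605372-24608176) rose from 4499.8, 4212 and 4394 normalized counts to 5898, 5422 and 5253.5 (log2 fold change 0.34, SE 0.0522, adjusted p = 4.81e-04). PSME2 rose from 4393, 4171 and 4534 to 5581.5, 5408 and 4816.5, with a log2 fold change of 0.27 (SE 0.0571, adjusted p = 0.00353). PSMF1, the inhibitor PI31, was also higher, with a log2 fold change of 0.19, but not without control replicate 1 or 2 (adjusted p = 0.0864 and 0.0852).

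Among the 8 assembly factors 3 were higher. POMP (ENSG00000132963, GRCh37 chr13:29233202-29253096), which guides the maturation of the beta ring, had the largest fold change of all 47 genes: 428, 469 and 461 normalized counts in the controls became 691, 548.5 and 558.5 after IRE1. Replicate 1 was highest, and the log2 fold change was 0.40 (SE 0.0893, adjusted p = 0.00486). PSMG3 and PSMG1, chaperones of the alpha ring, were higher as well. PSMG3 went from 449.9, 405 and 444 to 529, 560.1 and 518, with a log2 fold change of 0.31 (SE 0.0754, adjusted p = 0.00889), and PSMG1 had a log2 fold change of 0.22. PSMG3 did not pass without control replicate 2 or IRE1-treated replicate 2 (adjusted p = 0.0684 and 0.0512), nor PSMG1 without control replicate 1 or 3 (adjusted p = 0.0709 and 0.0911). PSMG2, the partner of PSMG1, had 907, 873 and 908 normalized counts in the controls and 992, 1039 and 939 after IRE1. Its groups did not overlap, but its log2 fold change of 0.14 did not pass (SE 0.0600, adjusted p = 0.0982), except without IRE1-treated replicate 3 (0.19, adjusted p = 0.0292). The chaperones of the cap base among these 8 factors (PSMD5, PSMD9 and PSMD10) did not pass, and in each the groups overlapped. PSMD9 did pass without IRE1-treated replicate 3 (0.39, adjusted p = 0.00172) and with no filter on low counts (0.25, adjusted p = 0.0225). PAAF1, another chaperone of the cap ATPases, was higher and is given below with the other genes around the particle. PSMD5, at 439.8, 509 and 521 in the controls and 408, 542 and 462 after IRE1, had a log2 fold change of -0.05 (SE 0.0989, adjusted p = 0.761).

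Proteasome transcripts are short, and in these libraries short transcripts were more often higher after IRE1. The median canonical transcript of the 47 genes was 1470 bases, against 3367 for the tested protein-coding genes, and the median coding length was 819 against 1425 bases. GC content differed little, at 48.4 and 48.6%. When all tested protein-coding genes were split into 4 equal bins by transcript length, 33.2% of the shortest bin (207 to 2071 bases) were higher in IRE1-treated samples, and 7.59, 2.49 and 1.96% of the next 3. Of the 47 genes, 31 fell in the shortest bin and 24 of these were higher. Their median log2 fold change was 0.23, beside 0.17 for that bin. In the next 3 bins 2 of 7, 4 of 7 and 1 of 2 proteasome genes were higher, with medians of 0.12, 0.20 and 0.03 beside 0.04, -0.08 and -0.21. Across the 47 genes, Spearman's rho of the log2 fold change with transcript length was -0.28, beside -0.64 over the tested protein-coding genes, which share the same 6 libraries. The gap depends on the length used. It was -0.32 beside -0.58 with the longest annotated transcript, -0.34 beside -0.49 with merged exons and -0.45 beside -0.52 with coding length. These are correlations across genes, which are not independent replicates.

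**Figure D4:**
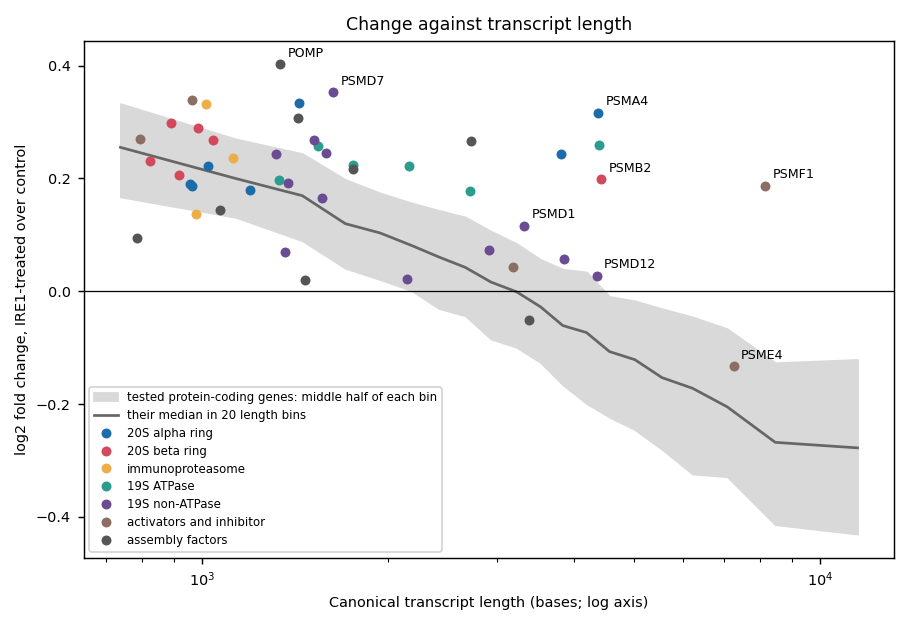
Log2 fold change, IRE1-treated over control, against canonical transcript length in bases on a log axis. Points are the 47 proteasome genes, the line is the median of tested protein-coding genes in 20 bins of length, and the grey band is the middle 50% of each bin. Many short members lie within the band, while others, such as POMP and PSMD7, lie above it. The long PSMA4, PSMA5, PSMB2, PSMC1 and PSMF1 also lie above the band.

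To set the genes against others of like length, a smooth trend with length and GC was fitted to the counts of every library and removed, and the test was repeated. Then 10 of the 47 were higher and none lower, against 6.53% and 4.06% of all tested genes, the median log2 fold change fell from 0.22 to 0.11, beside 0.014 for all tested genes, and 40 lay above 0. The 10 were PSMA4, PSMA5, PSMB2, PSMC1, PSMC6, PSMD1, PSMD7, PSMD8, PSME1 and PSMF1. Of these, PSMD1 had not passed before. For PSMA4, PSMA5, PSMB2, PSMC1 and PSMF1, whose canonical transcripts are 3815 to 8154 bases long, the value rose, for example from 0.32 to 0.44 in PSMA4 and from 0.19 to 0.42 in PSMF1. These 5 have coding lengths of 603 to 1320 bases, so that most of the length is untranslated. The other 5 tested beta subunits, with transcripts of 824 to 1044 bases, no longer passed. PSMB5 fell to 0.10 (adjusted p = 0.19), PSMB7 to 0.12 (0.0738) and PSMB4 to 0.04 (0.65), by the same edgeR test. POMP kept 0.29 but missed the threshold (adjusted p = 0.0557). With coding length in place of transcript length, an alternative added after the data were seen, 23 were higher, against 8.45% of all tested genes, and the median was 0.17. Of the 5 long transcripts, PSMB2 (0.10, adjusted p = 0.133) and PSMF1 (0.11, adjusted p = 0.106) then did not pass by the same edgeR test. PSMA4, PSMA5 and PSMC1 did, at 0.27, 0.25 and 0.26. Which length describes the RNA in these cells was not tested, since canonical transcripts are an annotation choice.

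**Figure D5:**
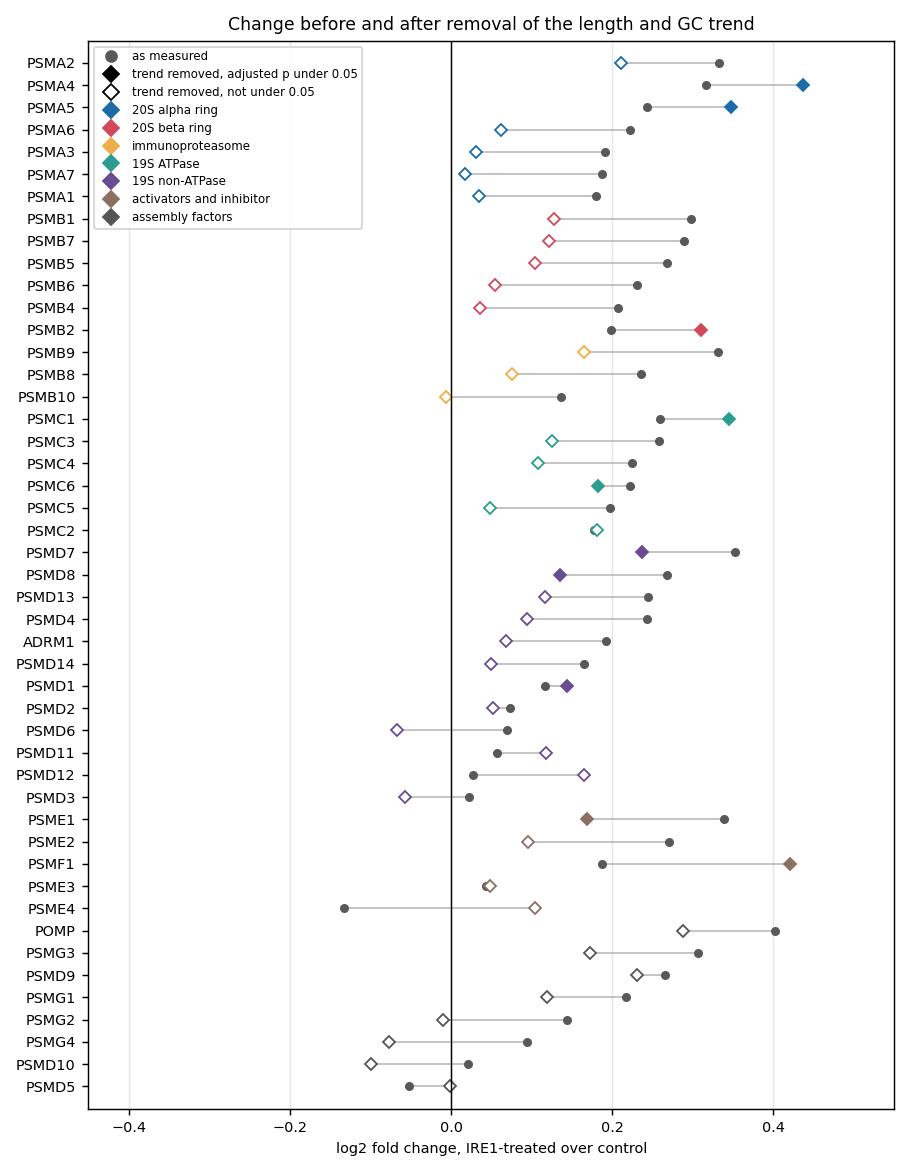
Log2 fold change of each proteasome gene as measured (grey points) and after removal of the length and GC trend (diamonds, filled where the adjusted p was under 0.05). Most diamonds lie left of their points, those of PSMA4, PSMA5, PSMB2, PSMC1 and PSMF1 lie right of them, and PSME4 moves from -0.13 to 0.10.

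PSMD1 and PSME4 are the members for which the study designed primers in the 5′ part of the mRNA, and they have the longest coding sequences of the list. The study listed both as putative IRE1 substrates from its exon counts. By qRT-PCR it found less of the 5′ region of each of its candidates in IRE1-treated samples. The primers are shown to mark the stretch of each mRNA that was assayed, in capitals throughout, 5′ to 3′.
PSMD1 forward: CAAACAATGTGTGGAAAATGC
PSMD1 reverse: CTTCGTGTCTCCAGAGCAA
PSME4 forward: CTCGAGTGGATGGAAGGAA
PSME4 reverse: AGGCTTGTCAAAGCCACC
The PSMD1 pair matched the coding sequence in exon 5 of 25, at bases 486 to 635 of the canonical transcript (GRCh37 chr2:231931642-231931791, plus strand). The PSME4 pair matched the coding sequence in exon 18 of 47, at bases 2260 to 2447 (GRCh37 chr2:54148050-54148237, minus strand).

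At the level of the whole gene neither passed as lower. PSMD1 (ENSG00000173692), a large scaffold of the cap, had 1972, 1805 and 1817 normalized counts in the controls and 2020.5, 1992 and 2053 after IRE1. All treated libraries were above the controls, by a log2 fold change of 0.12 that did not pass (SE 0.0518, adjusted p = 0.122). PSME4 (ENSG00000068878) had 1389, 1254 and 1188 in the controls and 1033, 1208 and 1251 after IRE1. Only replicate 1 lay below every control, and the log2 fold change of -0.13 did not pass (SE 0.0742, adjusted p = 0.221). With the length and GC trend removed PSME4 came to 0.10 and PSMD1 to 0.14 (adjusted p = 0.0479), so the sign of PSME4 depended on this step. With the trend in coding length removed, PSME4 came to 0.20 and passed as higher (adjusted p = 0.0236). A loss confined to the 5′ exons of either gene lowers its gene count only in part, and counts per exon were not used here.

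IRE1 is known to cut RNA in hairpin loops at a consensus of the form CUGCAG, as in XBP1. The canonical transcripts were therefore searched, on the mRNA strand only, for C, then A, C or U, then GC, then A or C, then A or G (a set that includes CUGCAG), and each match was folded with 15 bases on each side. A match counted as a site where the G of its GC lay in a predicted hairpin loop of 5 to 11 bases. The stem had to have 3 or more pairs, and other bases of the match could lie in it. Such a site was found in 32 of 47 proteasome genes (68.1%) and in 83.9% of tested protein-coding genes, and within the shortest bin in 58.1 and 65.9%. A CUGCAG match was counted by this rule in 10 of 47 genes (21.3%), against 35.4%, and within the shortest bin in 16.1 and 18.2%. With loops of exactly 7 bases the shares for the wider set were 25.5 and 32.7%, and within the shortest bin 19.4 and 16.2%. Sites of the 10 lie in members of the alpha ring (PSMA3 and PSMA4), the beta rings (PSMB7 and PSMB9), the ATPases (PSMC1 and PSMC5), the activators and inhibitor (PSME3, PSME4 and PSMF1) and the assembly factors (PSMG1).

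A few of these sites are printed to show what such a match looks like in genes that were higher and in PSMD1 and PSME4, with the matched bases in capitals and 10 bases on each side, 5′ to 3′.
PSMA4: aauaauagcgCUGCAGcugugucaau
PSMB7: aaagggacuaCUGCAGuccucacuga
PSMB9: ucccgaguguCUGCAGgcgaggcggu
PSMC5: gcuacagcugCUGCAGgagcagggcu
PSME4: accauuccuuCUGCAGaguuggucaa
PSMD1: cgcuacggagCUGCAAuggccuuggg
All 6 lie in coding sequence. The study also folded its candidate mRNAs and looked for a consensus stem-loop near the region of the cut. PSMD1 and PSME4 are not among the mRNAs for which it reported one, so the sites printed here come from a wider search. The predicted loop has 5 bases in PSMB7, PSMC5 and PSMD1, fewer than the match, so part of the match lies outside it. On GRCh37 the capitals span chr15:78838105-78838920 in PSMA4 (plus strand, across the junction of exons 7 and 8), chr9:127115951-127115956 in PSMB7 (minus strand, exon 8), chr6:32823976-32823981 in PSMB9 (plus strand, exon 2), chr17:61907241-61907246 in PSMC5 (plus strand, exon 4), chr2:54096513-54096518 in PSME4 (minus strand, exon 44) and chr2:232003521-232003526 in PSMD1 (plus strand, exon 17). Of all 60 sites of the 47 genes, 36 were in coding sequence, 17 in the 3′ UTR and 7 in the 5′ UTR. Of the 32 genes with a site, 20 were higher, with a median log2 fold change of 0.202 at the gene level, and of the 15 without one 11 were higher, with a median of 0.222. Of the 10 genes with a counted CUGCAG match, 8 were higher. Over all tested genes 10.3% were higher, and the share among those with or without a site was not counted. The groups also differ in length, with a median transcript of 1670 bases with a site, 1320 without and 2470 with a counted CUGCAG match. A predicted loop is a description of the letters, and whether any of these sites was cut was not tested.

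Other genes that act with the proteasome moved in both directions. Of 21 such genes, which cover the transcription factors, ubiquitin shuttles, deubiquitinases and adaptors around the particle, 19 were tested, 3 were higher and 5 lower (10.3 and 12.4% of all tested genes were), and the median log2 fold change was -0.07. Their median canonical transcript was 4242 bases, longer than that of the proteasome genes, and with the length and GC trend removed 4 were higher and 2 lower (6.53 and 4.06% of all tested genes). SEM1, the smallest subunit of the cap, had 954, 815 and 863 normalized counts in the controls and 1303, 1083 and 1030.5 after IRE1 (log2 fold change 0.37, SE 0.0828, adjusted p = 0.00495). PAAF1, a chaperone of the cap ATPases, was higher by 0.22 (adjusted p = 0.0423) and TXNL1, a thioredoxin-like protein bound to the cap, by 0.18 (adjusted p = 0.0197). With library size as the only scaling SEM1 alone passed as higher, and PAAF1 and TXNL1 did not (adjusted p = 0.171 and 0.186). The shuttle UBQLN1, which brings ubiquitinated proteins to the cap, went from 4683, 4626 and 4626 to 3869, 4036 and 4139.5, below every control, with a log2 fold change of -0.21 (SE 0.0461, adjusted p = 0.00451). The value of its paralogue UBQLN2 was -0.20 (adjusted p = 0.034), and UBE3C, a ubiquitin ligase of the cap, had -0.20 (adjusted p = 0.0167). With the length and GC trend removed UBQLN1 still passed as lower (-0.14, adjusted p = 0.0293). UBQLN2 (-0.10, adjusted p = 0.262) and UBE3C (-0.06, adjusted p = 0.432) then did not. NFE2L1, the transcription factor that drives proteasome genes, did not pass, at -0.12 (adjusted p = 0.114). PSMA8 and PSMB11, subunits known from testis and thymus, had 0 counts in every library, which allows up to 3 counts in each.

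Some of these counts could be shared with other sequences. Of the 48 genes, 18 have a pseudogene named after them, 6 share exon bases with another gene on the same strand and 7 with a gene on the other strand. The libraries were made with a kit that keeps strand, but the strand and overlap settings of the counting are not given in the sources used here. Among the 22 tested genes with none of these, 14 were higher and the median log2 fold change was 0.20, an alternative added after the data were seen.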

How the data were processed

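Total RNA of H929 was incubated with or without IRE1 and sequenced after poly(A) purification. The authors trimmed reads with cutadapt 1.12, aligned them to GRCh37 with STAR 2.5.3a and counted them per Ensembl gene with HTSeq 0.6.1p1 (versions per the submitters' processing notes, which also list edgeR 3.24.3). They deposited raw counts per gene and library, and a table of CPM that was used only in an alternative. HTSeq's summary lines, 21.4 to 23.2% of the counts in the files, were left out.

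All 6 libraries (19615715 to 25678499 counts) entered 1 fit without covariates in edgeR 4.0.16 (R 4.3.3), with its filter on low counts, TMM scaling, the quasi-likelihood test and Benjamini-Hochberg adjustment over 14398 genes, threshold 0.05. On simulated data of 14228 genes, this comparison recovered 99 of 100 genes changed by 1 on the log2 scale and 70 of 100 changed by 0.4, and called 12 unchanged ones. Smaller changes, such as the proteasome genes' median of 0.22, were not simulated, so these shares do not give the recovery for most of them. No library was a copy of another (lowest chi-square per gene 2.2). Normalized counts are scaled to the mean library, and RPKM divides them by its size and by the canonical transcript length (GENCODE release 44 on GRCh37). Hairpins were folded with ViennaRNA 2.7.2. Trends with length and GC content were removed by loess (span 0.5) as offsets.

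The alternatives were DESeq2 1.42.0, upper quartile scaling or library size alone, at least 10 counts in every library or no filter, limma 3.58.1 on log2 of the CPM plus 1, the replicate number as a block, trend removal, both together, and each library left out. Genes given in full were the active-site subunits, the members with primers, the highest and lowest of each subgroup and the 8 with the largest fold change past the threshold in each direction. The members and lists were chosen with earlier results of these data known. Counting error is part of the fits, and no interval of a single count is given. Exon counts were not used here.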

Additional observations from a re-analysis of the deposited data

How the results depend on the processing

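No proteasome gene passed as lower under any of the 16 other settings. The number passing as higher was 31, and became 18 with library size only, 10 with the length and GC trend removed and 8 with the replicate block and trend removal together (5.85% of all tested genes), where the median log2 fold change, 0.22 before, was 0.14, 0.11 and 0.11. Leaving out 1 library at a time gave 18 (without control replicate 2) to 35, and the cause was not tested. Same-numbered samples did not deviate together (correlations -0.191, -0.156 and -0.488). With deviations taken within such small groups, this check cannot show whether the numbers pair the samples. With the replicate number as a block 28 were higher (7.76%). Values that changed sign belonged to genes that had not passed. With library size only these were PSMD10 (-0.0541), PSMD11 (-0.0199), PSMD12 (-0.0454), PSMD2 (-0.0026), PSMD3 (-0.0540), PSMD6 (-0.0059) and PSME3 (-0.0331). With the trend removed they were PSMB10 (-0.0069), PSMD10 (-0.0989), PSMD3 (-0.0570), PSMD6 (-0.0677), PSME4 (0.10), PSMG2 (-0.0098) and PSMG4 (-0.0776), and with the block as well PSMB10 (-0.0076), PSMD10 (-0.0992), PSMD3 (-0.0571), PSMD6 (-0.0669), PSME4 (0.10), PSMG2 (-0.0106) and PSMG4 (-0.0823). With the trend in coding length removed they were PSMD10 (-0.0226), PSMD5 (0.0434), PSME3 (-0.0426), PSME4 (0.20, which then passed) and PSMG4 (-0.0884). With 1 library left out, PSMD10 ranged from -0.0426 to 0.0857, PSMD12 from -0.0604 to 0.137, PSMD3 from -0.0067 to 0.0507, PSMD5 from -0.165 to 0.0400 and the change of the PSMB8 to PSMB5 ratio from -0.0691 to 0.0027. The control log2 ratios per length moved with the length used: PSMB8 to PSMB5 to -1.05 (longest transcript) and -1.13 (merged exons), PSMB9 to PSMB6 to -2.78, -2.37 and -1.03 (coding length), and PSMB10 to PSMB7 to -1.40 (merged exons). The share of members with a counted site went from 68.1% to 21.3% for CUGCAG only and to 25.5% for loops of exactly 7 bases (all tested protein-coding genes 83.9, 35.4 and 32.7%). The effect of depth on single members, such as PSMA2 with its few counts, was not tested.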

Other observations

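CD3E, a subunit of the T cell receptor complex, was counted at a level that sets it apart from the other markers of cell types other than plasma cells. Its normalized counts were 899, 942 and 916 without the enzyme and 1179, 948 and 969 with it. CD3D, its partner in T cells, had 0 raw counts in each control, which allows up to 3 counts in each. Whether this signal is CD3E transcript of H929 was not tested, and no proteasome value given here uses it.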
